A study of Rattus norvegicus with 5 samples.

Results

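AP-1 is a family of dimeric transcription factors built from basic leucine zipper proteins. The 8 genes described here code for its Fos subunits (Fos, Fosb, Fosl1 and Fosl2), its Jun subunits (Jun, Junb and Jund) and Atf3, a related zipper protein that pairs with Jun proteins. They were chosen by name, as every non-control spot of the array that carries 1 of these symbols. That gave 10 probes on 19 spots per array, out of 41012 probes for 35633 genes or transcripts. Jun had 1 probe printed on 10 spots, Jund had 3 probes, and the other 6 genes had 1 probe on 1 spot each.

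The samples were Fao cells, a rat hepatoma line that keeps many hepatocyte functions, after 0, 15, 30, 45 and 60 min of 10 nM insulin. All 5 samples shared the same preparation, with 2 days of growth in 10% serum followed by 16 h of starvation in 10 nM dexamethasone, a synthetic glucocorticoid, so the 0 min cells had dexamethasone too. Each time was measured on 1 Agilent 1-colour rat array from 700 ng of total RNA, and the labels do not say whether the dishes were separate cultures. No time had a replicate, so a change at a single time has no p-value and no replicate check. Untreated cells taken at matching times were not analysed here.

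Fos and Jun proteins bind DNA as pairs, since Fos proteins pair with Jun proteins and Jun proteins also pair with each other. Fos, Fosb, Jun, Junb and Atf3 belong to the immediate early genes, whose transcription starts without new protein synthesis and whose mRNAs mostly decay fast. Insulin receptor signalling reaches Fos through kinases that act on Elk1 bound beside Srf at the Fos promoter. In mouse liver Jun is needed for normal hepatocyte proliferation after partial hepatectomy.

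Signal over background set which genes could be measured. No spot was saturated, and between 50.87% and 56.45% of the 43379 spots that are not controls exceeded background clearly (well above background, by the deposited flag). A level is the processed signal as a multiple of its array's 75th percentile, and a change is a difference of log2 levels. Slide 1 held the first 4 times, placed in order of time, and slide 2, scanned separately, held the 60 min array, so slide and time cannot be told apart at 60 min. Its 75th percentile was 480.3 intensity units, against 253.6 to 299.9 on the others. The SD of a single-spot change, as the median of 142 probes that had 8 or more usable spots, was 0.187 to 0.199 log2 units against 0 min. This technical SD comes from spots within arrays and does not include differences between cultures, arrays or slides. Over all genes the median change lay between 0.015 and 0.034 at the 4 times. The SD of the changes over all genes was 0.227 to 0.251 at 15, 30 and 45 min and 0.343 at 60 min. Of 9 hepatocyte markers, 8 were well above background on all 5 arrays and Apoh on none, with a summed level of 935 to 1040. Of 5 macrophage markers, Cd68 and Cd14 were well above background on all 5 arrays, Csf1r on 3, and Cd163 and Adgre1 on none, with a summed level of 1.37 to 1.69. Of 4 endothelial markers, Kdr was well above background on 4 arrays, and Pecam1, Vwf and Tek on none. Of the stellate cell and fibroblast markers 1 of 3, Col1a1, and of the biliary markers 2 of 4, Krt19 and Sox9, were well above background on all 5 arrays, with summed levels of 1.65 to 1.79 and 0.366 to 0.401. In RNA from whole dishes, fewer cells of a type and less RNA per cell cannot be told apart.

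**Figure D1:**
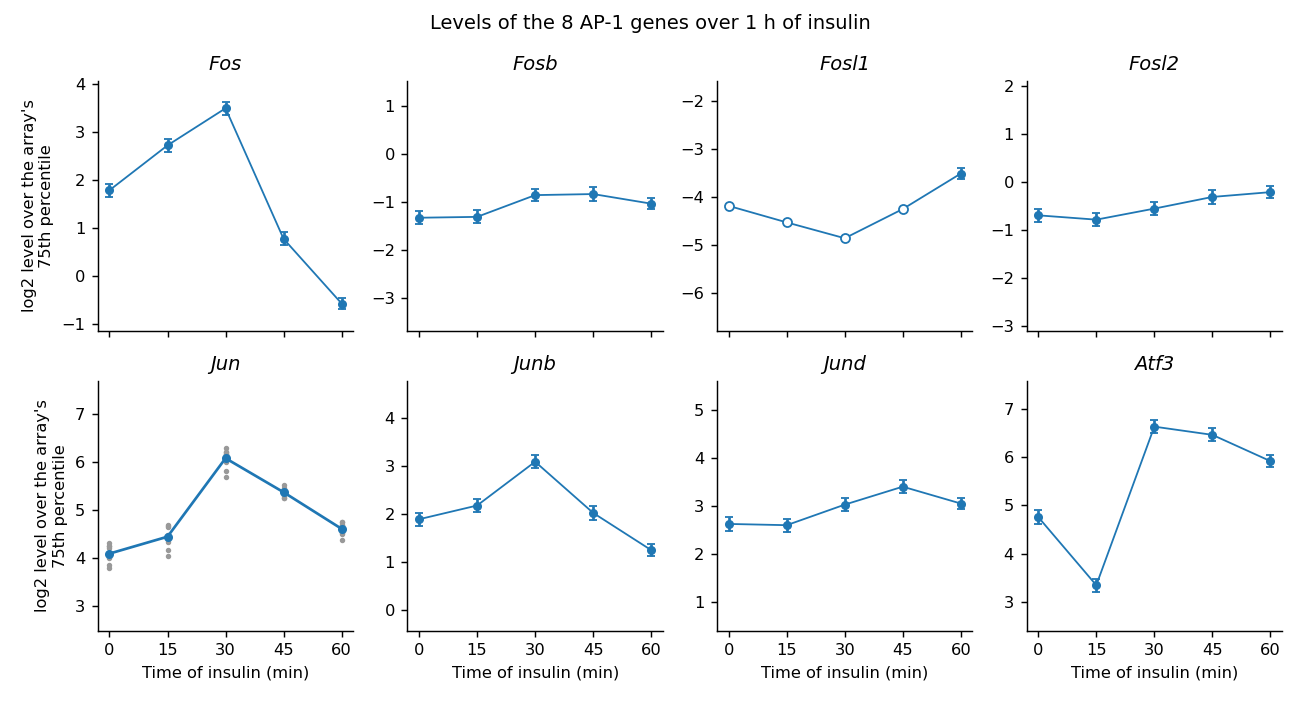
Level of each AP-1 gene by time of insulin, on a log2 axis of equal height in every panel, with 1 array per time. Bars are the median SD between repeated spots of other probes, grey points are the separate spots of Jun, and hollow points are not well above background; Fos, Jun, Junb and Atf3 are highest at 30 min, and Fos and Junb are lowest at 60 min.

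RefSeq promoter windows on assembly GRCr8, 250 bases before the start site to 50 after it, were at hand for 5 of the 8 genes, namely Fosb, Fosl1, Fosl2, Junb and Jund. Those of Junb and Jund are shown, since these are Jun genes with unlike courses below. Capitals mark TATAAA and the cyclic AMP response element (CRE) half-site TGACG in Junb, and the full CRE TGACGTCA, which holds the half-site on both strands, and a further half-site in Jund; a match on the other strand reads CGTCA.
Junb (chr19:40080876-40081175, + strand): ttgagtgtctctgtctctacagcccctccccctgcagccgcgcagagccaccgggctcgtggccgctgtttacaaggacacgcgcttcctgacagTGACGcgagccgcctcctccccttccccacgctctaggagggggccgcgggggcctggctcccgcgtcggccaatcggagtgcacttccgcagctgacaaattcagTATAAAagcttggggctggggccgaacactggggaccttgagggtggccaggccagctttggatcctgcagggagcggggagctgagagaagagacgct
Jund (chr16:18769722-18770021, − strand): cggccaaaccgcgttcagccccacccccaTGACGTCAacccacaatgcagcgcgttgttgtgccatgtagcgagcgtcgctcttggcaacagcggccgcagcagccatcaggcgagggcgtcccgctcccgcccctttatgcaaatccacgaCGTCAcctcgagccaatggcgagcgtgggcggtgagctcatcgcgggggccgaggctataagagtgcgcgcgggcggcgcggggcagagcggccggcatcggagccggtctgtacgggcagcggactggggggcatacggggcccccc
The CRE of Jund begins 221 bases before its start site and its separate half-site 98 bases before it. In Junb the half-site begins 155 bases and TATAAA 49 bases before the start site. Among 33469 rat promoter windows of the same length, 1.83% held the CRE, 21.2% the half-site and 14.2% TATAAA on either strand; TATAAA and the half-site were added after the windows had been read. Fosl1 held the half-site at 2 places and Fosb held TATAAA. None of the 5 windows held the AP-1 site TGACTCA (4.63% of all windows), the Jun-type site TGACATCA (4.34%) or a CArG box, the site bound by Srf (1.64%). Such a match is only a match of letters.

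The first question was how far each gene differed from the 0 min array at each time. At 30 min, 4 of the 7 genes measured on both arrays were at least 2-fold higher, namely Jun, Atf3, Fos and Junb, and none was 2-fold lower. Over all 17152 genes measured on both arrays, 0.233% were 2-fold higher at that time and 0.21% were 2-fold lower. All 7 genes, Jund by its probe 1, were above their 0 min level at 30 min, beside 55.0% of all genes. Their median log2 change was 1.20, against 0.023 over all genes. Probe 3 of Jund was below its 0 min level, at −0.414. Fosl1, too dim on both arrays, had no measured change. At 15 min no AP-1 gene was 2-fold higher and 1, Atf3, was 2-fold lower, beside 0.11% higher and 0.278% lower of all genes. At 45 min Atf3 and Jun were 2-fold higher and Fos was lower, beside 0.325% and 0.284% of all genes. At 60 min Atf3 was 2-fold higher and Fos lower, beside 0.639% and 0.701% of all genes. The median of the 7 genes was 0.019 at 15 min, 0.49 at 45 min and 0.43 at 60 min.

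**Figure D2:**
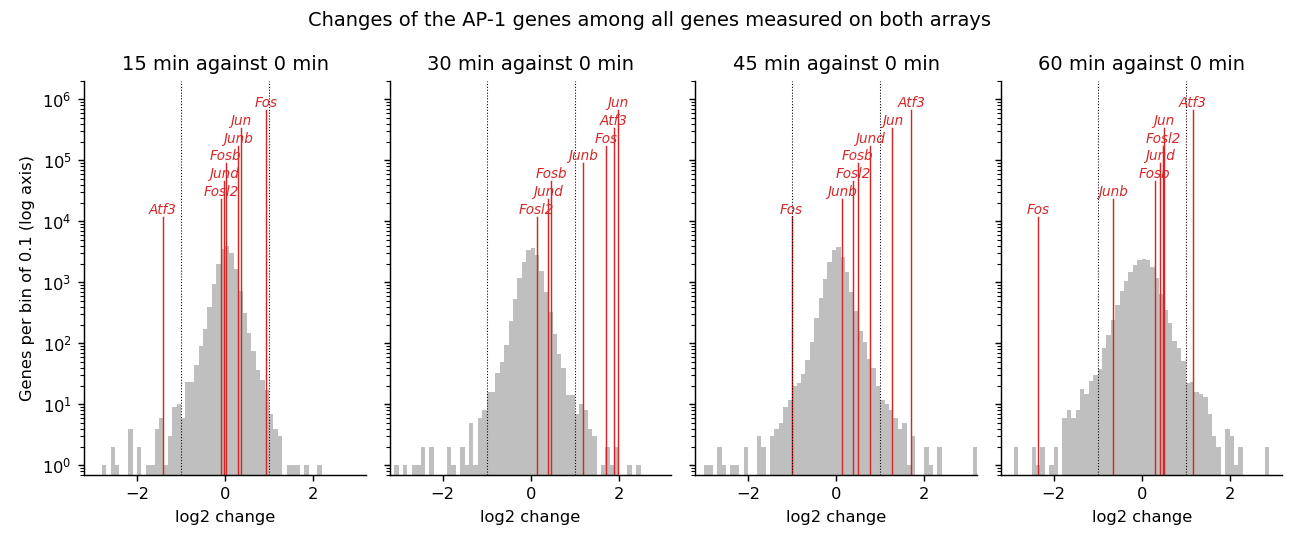
Histograms of log2 change against 0 min over all genes measured on both arrays (grey, 0.1 per bin, log count axis), with each measured AP-1 gene as a red line and dotted lines at 2-fold; line heights only separate the names. At 30 min Jun, Atf3, Fos and Junb lie past the right dotted line, and at 60 min Fos lies at −2.36.

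Fos, the founding Fos subunit, which cannot bind DNA without a Jun partner, had a brief peak. Its probe lies at chromosome 6, 109561099 to 109561158, on the rn4 assembly of the array design. Its level was 3.44 at 0 min, 6.58 at 15 min, 11.2 at 30 min, 1.71 at 45 min and 0.672 at 60 min. All 5 levels stood apart from their neighbours in order of size by more than 2 technical SDs. Against 0 min, Fos was higher by 1.91-fold at 15 min and by 3.27-fold at 30 min, place 7 of 17152 genes ranked from the highest change. The log2 change at 15 min was 0.94, but 0.32 with another background correction (normexp), which 5 spots of that array distorted, and 0.85 without those spots. At 45 min the level of Fos was 2.02-fold below that at 0 min, a log2 change of −1.01 that came to −0.99 under normexp, just short of 2-fold. At 60 min it was 5.12-fold lower than at 0 min, place 5 of 17837 genes from the lowest. The drop between the 30 and 45 min arrays, both on slide 1, was 6.58-fold, the lowest of all 17023 genes measured on both.

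Jun, whose protein pairs with Fos or with itself, was highest at 30 min and still above its 0 min level at 60 min. Its probe lies at chromosome 5, 115358764 to 115358823. Averaged over its spots, the level was 17.0 ± 1.98 at 0 min, 21.7 ± 3.08 at 15 min, 67.2 ± 8.25 at 30 min, 41.1 ± 2.76 at 45 min and 24.3 ± 2.02 at 60 min (SD between 10 spots of 1 array, 8 at 45 min). Spots of 1 array are technical repeats of 1 sample, so their spread holds no differences between arrays or slides. The spots at 30 min ran from 51.35 to 77.73 and those at 0 min from 13.76 to 19.68, so they did not overlap. The spots at 60 min ran from 20.78 to 26.93, also apart from those at 0 min, whereas those at 15 min ran from 16.4 to 25.6 and overlapped both. Against 0 min, the 30 min level of Jun was 3.96-fold higher (log2 change 1.99, SE 0.080 between spots), place 3 of 17152 genes. The 45 min level was 2.42-fold higher than the 0 min level (log2 1.28, SE 0.064), and the 60 min level 1.43-fold higher (log2 0.52, SE 0.067). The change at 60 min took place 851 of 17837 genes from the highest. At 15 min the log2 change was 0.35 (SE 0.086), but it was −0.31 under normexp with the distorting spots and 0.32 without them.

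**Figure D3:**
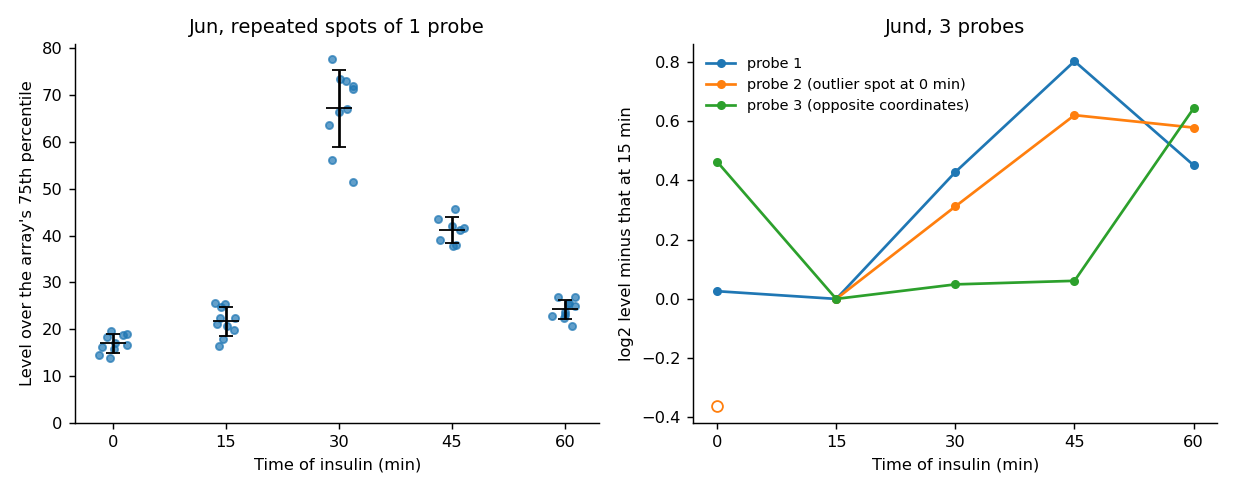
Left, level of Jun on each usable spot of its probe by time, with the mean and SD between spots; the 30 min spots all lie above those of the other times. Right, log2 level of the 3 Jund probes minus that at 15 min, where the hollow point is the outlier spot of probe 2, and the 30 and 45 min values of probes 1 and 2 lie above those of probe 3.

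Junb, a Jun family subunit that can oppose Jun at some promoters, had the shorter course of Fos at a smaller size. Its probe lies at chromosome 19, 24832781 to 24832840, and its promoter window is the first of those printed above. Its level was 3.72 at 0 min, 4.53 at 15 min, 8.53 at 30 min, 4.08 at 45 min and 2.38 at 60 min. The 30 min array was the highest and the 60 min array the lowest, each by more than 2 technical SDs, while 15, 45 and 0 min did not stand apart from their neighbours by that much. At 30 min Junb exceeded its 0 min level 2.29-fold, place 24 of 17152 genes, and at 60 min it was 1.56-fold below it. The log2 change of Junb at 60 min was −0.64, where the SD over all genes was 0.343. Its log2 change at 15 min was 0.29, and −0.23 under normexp with the distorting spots.

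Jund, the subunit usually present in resting cells, had smaller changes and probes that disagreed. Probe 1 lies at chromosome 16, 19240333 to 19240392, probe 2 at 19239704 to 19239763 and probe 3 at 19241193 to 19241252. Probe 1 had levels of 6.14 at 0 min, 6.03 at 15 min, 8.11 at 30 min, 10.5 at 45 min and 8.24 at 60 min. The 45 min level was the highest, 1.71-fold above 0 min, but it exceeded the 60 min level by less than 2 technical SDs. Probe 2 was an outlier spot at 0 min and had levels of 68.9 at 15 min, 85.6 at 30 min, 105.9 at 45 min and 102.9 at 60 min. Probes 1 and 2 thus both had higher levels at 30, 45 and 60 min than at 15 min, as did probe 3 by the levels that follow. Probe 3 had levels of 2.93 at 0 min, 2.13 at 15 min, 2.20 at 30 min, 2.22 at 45 min and 3.32 at 60 min, so it was lower at 15, 30 and 45 min than at 0 min. At 30 against 15 min probe 3 was 1.03-fold higher, beside 1.34-fold for probe 1 and 1.24-fold for probe 2. At 15 against 0 min the log2 change was −0.463 by probe 3 and −0.026 by probe 1, and probe 2 had no usable spot at 0 min. The deposited coordinates of probe 3 run in ascending order, opposite to the other Jund probes. Of 11662 probes with a RefSeq strand, 94.9% had coordinates that run with the strand of their gene. With the outlier spot kept, Jund was represented by probe 2 and its log2 change was 0.67 at 30 min and 0.98 at 45 min. With all detected probes averaged the change was −0.006 at 30 min and 0.19 at 45 min, so its direction at 30 min depends on the probe.

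Atf3, a stress-induced factor that often represses transcription, followed another course. Its probe lies at chromosome 13, 107191691 to 107191749. Its level was 27.1 at 0 min, 10.1 at 15 min, 99.9 at 30 min, 88.7 at 45 min and 60.7 at 60 min. The 15 min array was the lowest, and the 30 and 45 min arrays were the highest and lay within 2 technical SDs of each other. Atf3 was 2.67-fold lower at 15 min than at 0 min, place 25 of 17260 genes from the lowest. That log2 change of −1.42 was −2.01 under normexp with the distorting spots and −1.42 without them. It exceeded its 0 min level by 3.69-fold at 30 min, by 3.28-fold at 45 min and by 2.24-fold at 60 min, so it was the only 1 of the 7 that was 2-fold higher at 60 min. Between the 15 and 30 min arrays it differed 9.87-fold, the highest of all 17032 genes measured on both.

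The 3 other Fos genes had small or unmeasured changes. Fosb, a close relative of Fos, had levels of 0.401 at 0 min, 0.406 at 15 min, 0.556 at 30 min, 0.564 at 45 min and 0.491 at 60 min. Its probe lies at chromosome 1, 78668672 to 78668731. Fosb exceeded its 0 min level by 1.39-fold at 30 min and by 1.41-fold at 45 min. These log2 changes of 0.47 and 0.49 were above 2 technical SDs, with 1 SD at 0.195 and 0.199. Under normexp the changes were 0.383 and 0.385, below 2 technical SDs. The technical SD is a median over other probes, and its 95th percentile was 0.308 at 30 min and 0.328 at 45 min. At that spread neither change reaches 2 SDs. No Fosb level stood apart from its neighbour in order of size by more than 2 technical SDs. Fosl2, which codes for Fra-2, a Fos family subunit without the strong activation domain of Fos, had levels of 0.620 at 0 min, 0.583 at 15 min, 0.683 at 30 min, 0.809 at 45 min and 0.867 at 60 min. Its 60 min level was 1.40-fold that at 0 min, a log2 change of 0.48 against a technical SD of 0.187. Neighbouring levels again lay within 2 technical SDs, and the file gives no coordinates for the Fosl2 probe. Fosl1, which codes for Fra-1, was not well above background from 0 to 45 min and had a level of 0.0873 at 60 min, on slide 2. That was 1.59-fold its dim 0 min signal, a ratio that is neither a measured change nor a lower limit. The Fosl1 probe lies at chromosome 1, 208098827 to 208098886.

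The second question was which steps between neighbouring times held these changes. Of the 7 genes, all were higher at 30 than at 15 min, beside 47.1% of all genes. At least 2-fold higher were 2 of them (Atf3 and Jun) and none was 2-fold lower, beside 0.264% higher and 0.141% lower of all genes. Fos and Junb were 2-fold lower at 45 than at 30 min and none was higher, beside 0.141% lower and 0.129% higher of all genes. Jun was 1.63-fold and Atf3 1.13-fold lower over the same step, whereas Jund was 1.30-fold higher by probe 1. At 60 against 45 min Fos was 2.54-fold lower and no other AP-1 gene passed 2-fold in either direction, beside 0.428% lower and 0.257% higher of all genes. Jun, Junb and Atf3 were 1.70-fold, 1.71-fold and 1.46-fold lower over that last step, which crosses the slides.

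A lasting drift over the hour was tested as a slope on time across all genes, with limma and Benjamini-Hochberg adjustment, on 5 arrays with 3 residual degrees of freedom. It called 0% of 20508 genes, with 1765 at an unadjusted p under 0.05, and no AP-1 gene. The smallest adjusted p among the 8 genes was 0.492, for Fosl2, whose log2 level was higher by 0.14 per 15 min by limma. For Fos the slope was −0.67 per 15 min (limma adjusted p = 0.577) and for Atf3 0.55 (limma adjusted p = 0.597). Jun and Junb had slopes of 0.20 and −0.14, with limma adjusted p-values of 0.761 and 0.78. A straight line does not describe a peak, so this fit bears little on Fos, Jun, Junb and Atf3, all highest at 30 min. The slopes also depended on single arrays. That of Fos was −1.26 without the 0 min array and −0.23 without the 60 min array, and that of Atf3 was 0.33 without the 15 min array and 0.84 without the 60 min array.

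Fos, Jun, Junb and Atf3, each well above background on all arrays and spanning at least 1 log2 unit, were each set against the 174 other genes with a symbol for which this held, by Pearson's r of log2 level over the same 5 arrays. With 5 points this only describes likeness of shape, and the points share their arrays. Fos and Junb were the most alike (r = 0.903), and Jun resembled Atf3 (r = 0.741) and Junb (r = 0.714) more than Fos (r = 0.354). Fos and Atf3 ran differently (r = −0.238). The genes most like Fos were Ccn2, a secreted matrix protein (r = 0.973), Zfp36, which promotes decay of AU-rich mRNAs (r = 0.962), Nectin1, Srpx and Purg (r = 0.946 to 0.958). Zfp36 was also the closest to Junb (r = 0.98), followed by Pcdhgc3, Rbm48, Galr3 and the secreted matrix protein gene Ccn1 (r = 0.937 to 0.979). Zfp36 had log2 changes of 0.20, 1.07, −0.22 and −1.01 at 15, 30, 45 and 60 min. The closest to Jun were Sntb1, Aste1, Osgin1, the antiproliferative gene Btg2 and Nfkbiz (r = 0.89 to 0.967). The closest to Atf3 were Dnaaf2, the orphan nuclear receptor gene Nr4a1, Tiparp, the polyamine enzyme gene Sat1 and Csrnp1 (r = 0.949 to 0.988). Nr4a1 shared the low value at 15 min, with a log2 change of −1.08, and was at 0.64 at 30 min.

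The other genes of the pathway were counted in 3 lists, by the brightest probe of each gene. Over all genes measured, 0.11% to 0.639% were 2-fold higher and 0.21% to 0.701% were 2-fold lower at any 1 time, so a count near 0 in a list of this size is not a result about the list. Of 23 other zipper factors that pair or compete with AP-1 proteins, 19 were measured and none was 2-fold higher or lower at any of the 4 times, with medians of −0.043, 0.015, 0.10 and 0.099. The largest changes among them were those of Maff, a small Maf protein, at 0.67, and Atf5, at 0.61, both at 60 min. Atf6, a sensor of endoplasmic reticulum stress, was at −0.49 at 30 min and Bach1 at 0.48 at 45 min. Of 22 kinases and factors upstream of the Fos and Jun promoters, 16 to 18 were measured and none passed 2-fold by its brightest probe, with medians of 0.010, −0.038, −0.027 and −0.12. Srf, which binds the CArG box of Fos, had the largest change, at −0.13, 0.44, 0.55 and 0.92, and its other 2 probes were at 0.97 and 0.74 at 30 min and 0.87 and 1.09 at 60 min, the last of them past 2-fold. The RSK1 gene Rps6ka1 was at −0.41 at 60 min, and the probes of the JNK1 gene Mapk8 disagreed in sign.

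Of 25 reported AP-1 target genes, 13 were measured against 0 min at each time, and 1 was 2-fold higher at 45 and at 60 min, namely Mt1, a metallothionein that binds zinc and copper, beside 0.325% and 0.639% of all genes at those times. Medians were −0.009, 0.12, 0.21 and 0.11. Mt1 had levels of 45.2 at 0 min, 25.3 at 15 min, 70.5 at 30 min, 131.8 at 45 min and 119.2 at 60 min, and its second probe had log2 changes of 0.93 at 45 min and −0.028 at 60 min, so the probes disagree at 60 min. The growth factor gene Hbegf was at −0.81, the cyclin gene Ccnd1 at 0.74 and the keratin gene Krt8 at 0.65 at 60 min.

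**Figure D4:**
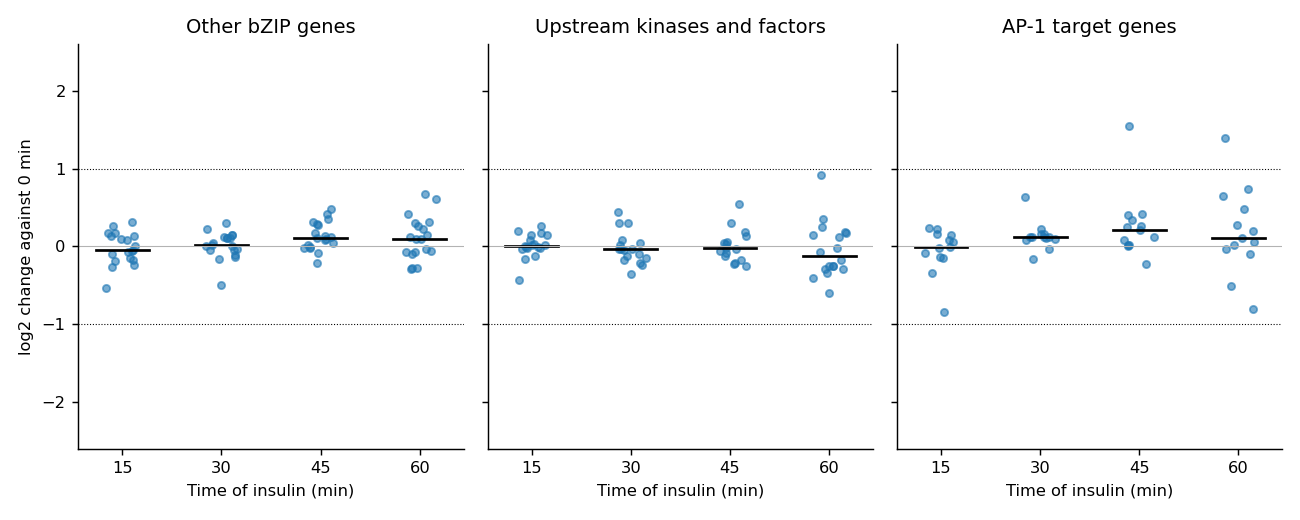
Log2 change against 0 min of each measured gene of the 3 lists by time of insulin, with the list median as a black bar and dotted lines at 2-fold. The single gene past 2-fold at 45 and 60 min is Mt1.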

How the data were processed

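The 5 samples were grouped by the insulin time in their labels, with 1 array per time. The deposited intensity values were made with Agilent Feature Extraction 9.5.3.1, per the file headers, which also name array design 014879 and assembly rn4, and the deposited flags for outlier spots and spots well above background were used as given. A series matrix, also deposited, gives log2 values for 19777 probes, of which 8 are AP-1 probes. From the values, its columns matched log2 of intensity over the 75th percentile of each array, centred per probe (r = 0.9993 to 0.9999 across 19746 probes, which are not independent). All 5 column medians were 0, so scale, centring and direction were settled, and it served as an alternative.

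Spots of a probe were averaged, without controls and without the 100 to 163 outliers of each array, and set over the array's 75th percentile of intensity. Signals were floored at the lowest one well above background, and log2 was taken. Each gene took the value of its brightest probe usable on all 5 arrays. A bound sets the dim side at the higher of its own signal and that floor. Names came from RefSeq (GRCr8) by accession (10915 probes) or symbol (8674), and 21423 probes kept the name in the file. The list entry Mrtfb matched no probe and was not analysed here. Probes were not placed in exons or untranslated regions.

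A gene was counted when at least 2-fold apart and well above background on both arrays. Slopes were fitted with limma 3.58.1 (R 4.3.3) at a 5% false discovery rate. On simulated data for 20508 genes over 5 arrays, this fit recovered 95% of slopes of 0.5 and 100% of slopes of 1 log2 unit per 15 min. The simulated slopes were straight lines on genes drawn at random, so these shares do not carry over to genes with a peak. In the real fit Fos and Atf3 had slope SEs of 0.329 and 0.294 log2 units per 15 min. The rest used pandas 2.3.3, numpy 2.4.6 and matplotlib 3.10.9 in Python 3.11.15.

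The AP-1 genes and the 3 lists were chosen with earlier results of these data known. From each list the 4 genes with the largest change at any time were named, except 1 that is not reported here. For each AP-1 gene spanning at least 1 log2 unit, the 5 symbols with the highest r were named. Alternatives were quantile scaling, another set of probes for the percentile, normexp background with an offset of 50, the series matrix, averaged probes, outlier spots kept, no floor filter and the 15 min array as the comparison point.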

Additional observations from a re-analysis of the deposited data

How the results depend on the processing

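The 4 genes at least 2-fold higher at 30 min and the 10 changes past 2-fold overall kept their direction in all 89 recomputations, and 84 of the 89 stayed past 2-fold. Many of these could not differ, since each of the 10 changes rests on 1 probe well above background. Averaging probes or dropping the dim filter could move none of them, and keeping outlier spots only that of Jun at 45 min. The series matrix holds nearly the same values. Against the 15 min array instead of 0 min, 2 AP-1 genes rather than 4 were 2-fold higher at 30 min and 1 rather than 2 at 45 min. Of all genes, 0.264% were 2-fold higher at 30 against 15 min. That share was not counted for 45 against 15 min, so the count of 1 there has nothing to be set beside. With normexp, with or without the 5 distorting spots of the 15 min array (the setting without them was chosen after seeing the data), the count of genes 2-fold lower at 45 min was 0 rather than 1, since Fos came to −0.99. No AP-1 gene had a slope past the threshold in any of the fits, and the count was also 0 in each fit that left out 1 array. Each fit without 1 array called 0 of all 20508 genes, as did the main fit. A count of 0 there is therefore not a result about the AP-1 genes. Slopes that changed sign were those of Fosl1 (−0.153 with normexp, −0.024 without the distorting spots, −0.053 without the 60 min array), Jun (−0.022 without the 0 min array, against 0.156 to 0.196 without that of 15, 30 or 45 min and 0.547 without that of 60 min) and Junb (0.131 without the 60 min array); the cause was not tested. The fit of genes on all arrays and that of the series matrix called 1 gene higher and 1 lower, neither an AP-1 gene. Without the filter on dim probes the median of all genes was −0.121 at 60 min, where the AP-1 values themselves were as given. No array could be left out of a change at a single time, since each time has 1 array. Dim signal limits Fosl1, which had no measured change. No paired analysis was possible because each group holds 1 sample.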
